A study of Homo sapiens with 6 samples.

Results

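The genes described here store, take up, export and sense iron: the ferritin subunits FTL and FTH1, the uptake proteins TFRC, SLC39A14, SLC11A2 and STEAP3, the exporter SLC40A1, the iron regulatory proteins ACO1 and IREB2, and the ferritin receptor NCOA4. They were taken by symbol from a list of 10 genes. Of these, 9 had a row among the 14168 genes of the table, and all 9 passed the filter on low values. SLC40A1, which encodes ferroportin, had no row and was not analysed here. The samples were 6 polyadenylated RNA libraries of BJ, a foreskin-derived human fibroblast line, with the genotype given as WT. A control siRNA had been given for 3 of them and an siRNA targeting agrin for the other 3, and both groups were grown alike in RPMI medium with serum. Agrin is a proteoglycan that cells secrete into basement membranes.

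A cell holds its spare iron inside ferritin, a hollow shell built from heavy and light subunits. The heavy subunit oxidises iron so that it can be stored, and the light subunit helps the mineral core to form. Transferrin-bound iron enters through the transferrin receptor, is reduced in endosomes and passes into the cytosol through metal transporters, while ferroportin carries iron out. The iron regulatory proteins bind hairpins called iron responsive elements when iron is scarce. In a 5′ UTR, as in both ferritin transcripts, the bound hairpin holds back translation, and in the 3′ UTR of TFRC it protects the transcript from decay. RNA was measured, so this control of ferritin translation, and the ferritin protein and iron content of the cells, were not seen by the assay.

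The hairpins are shown because iron regulatory proteins are known to bind both ferritin transcripts and TFRC there, and the ferritin pair carry nearly the same letters. The GENCODE release 29 transcripts on GRCh38 were searched on the transcript strand for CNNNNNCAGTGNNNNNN with all 5 bases on each side of the loop able to pair, and with at least 4 of 5 pairs below the bulged C. The lower pairs could begin at the bulged C or past a few further bases beside it. Each sequence shown was scored in the first form, which was kept unless the second had more pairs. FTL and FTH1 had 4 lower pairs in it and each TFRC hairpin 5. The form is thus a label of the search and does not settle how the ferritin hairpins fold. Capitals mark the 6-base loop. Each sequence is 27 bases long and runs 5′ to 3′. The FTL and FTH1 hairpins lie in the 5′ UTR within exon 1, at chr19:48965336-48965362 on the plus strand and chr11:61967575-61967601 on the minus strand. The search found 4 TFRC hairpins, all in the 3′ UTR within exon 19 on the minus strand, and may have missed others there. The 4 found are listed in transcript order from chr3:196050980-196051006 through chr3:196050576-196050602 and chr3:196050511-196050537 to chr3:196050464-196050490.
FTL: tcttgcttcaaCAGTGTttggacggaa
FTH1: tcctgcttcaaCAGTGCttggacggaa
TFRC hairpin 1: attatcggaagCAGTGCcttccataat
TFRC hairpin 2: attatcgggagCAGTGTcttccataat
TFRC hairpin 3: tgtatcggagaCAGTGAtctccatatg
TFRC hairpin 4: attatcgggaaCAGTGTttcccataat
Of 11503 tested genes with a scanned 5′ UTR, 4 held such a match (0.0348%), namely FTL, FTH1, CSF1 and ENC1. Of 11813 with a scanned 3′ UTR, 12 did (0.102%), TFRC among them. A match describes these letters and not binding, and the search does not find every reported element: EPAS1, CDC42BPA and SLC11A2, which have reported elements, were not among the matches.

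Depth ran from 42736368 to 48246613 reads per library over the listed genes. Libraries are numbered as the replicates of their labels, and scaled CPM stands for the deposited values, which are CPM after the authors' scaling. AGRN, the target of the siRNA, had 744, 804 and 790 scaled CPM in control libraries 1, 2 and 3. Agrin siRNA libraries 1, 2 and 3 had 290, 297 and 265, lower in each, as labelled. The 10 fibroblast markers all had rows, with a summed level of 52124 to 54664 scaled CPM in the controls and 50043 to 52516 with agrin siRNA. Among them S100A4 was higher and COL1A1, LUM and PDGFRB lower. The call of COL1A1 (limma adjusted p = 0.0429) was lost when control library 1, 2 or 3 (0.147, 0.16 and 0.0503 in turn) or agrin siRNA library 3 (0.171) was left out alone, and with no filter or quantile normalization. That of LUM (limma adjusted p = 0.0107) was lost without control library 1 (0.0585). Of 10 macrophage markers, 8 had no row, among them PTPRC, CD163 and CSF1R. The other 2, CD14 and CD68, were higher with agrin siRNA. The summed level of the list was 125 to 143 scaled CPM in the controls and 261 to 269 with agrin siRNA. Nearly all of this sum was CD68, with means of 131 in the controls and 261 with agrin siRNA. CD14 had means of 1.51 and 2.53. The part of the macrophage-listed genes in the results below was not tested. Of 7 erythroid markers, EPOR alone had a row, and no globin gene did. The endothelial CDH5 and the keratinocyte KRT1 were at 0 in all 6 libraries, and KRT5, KRT14, CDH1 and EPCAM did not reach the filter. TEK (0.16) and KRT10 (0.14) were the tested members of those lists, and the call of KRT10 (limma adjusted p = 0.0499) was lost when any single library was left out.

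The comparison asked which of these transcripts differed between the agrin siRNA and control libraries. The light ferritin subunit FTL fell by 23.7%, while its partner FTH1 did not pass the test, and the FTH1 to FTL ratio was higher in every agrin siRNA library than in any control. The metal transporters SLC39A14 and SLC11A2 and the endosomal reductase STEAP3 rose by 20.1% to 26.6%. IREB2, which encodes iron regulatory protein 2, fell by 13.0%. TFRC, ACO1 and NCOA4 did not pass. At an adjusted p under 0.05 (limma), 3 of the 9 genes were called higher and 2 lower, and the other 4 missed this threshold. Over all 13206 genes tested, 15.2% were called higher and 13.5% lower, together 28.7%. The median log2 fold change of the 9 genes was -0.066, against -0.000115 over all tested genes. The median absolute log2 fold change was 0.20 for the 9 genes and 0.11 over all tested genes. In bulk RNA, fewer cells making a transcript and less of it per cell cannot be told apart.

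**Figure D1:**
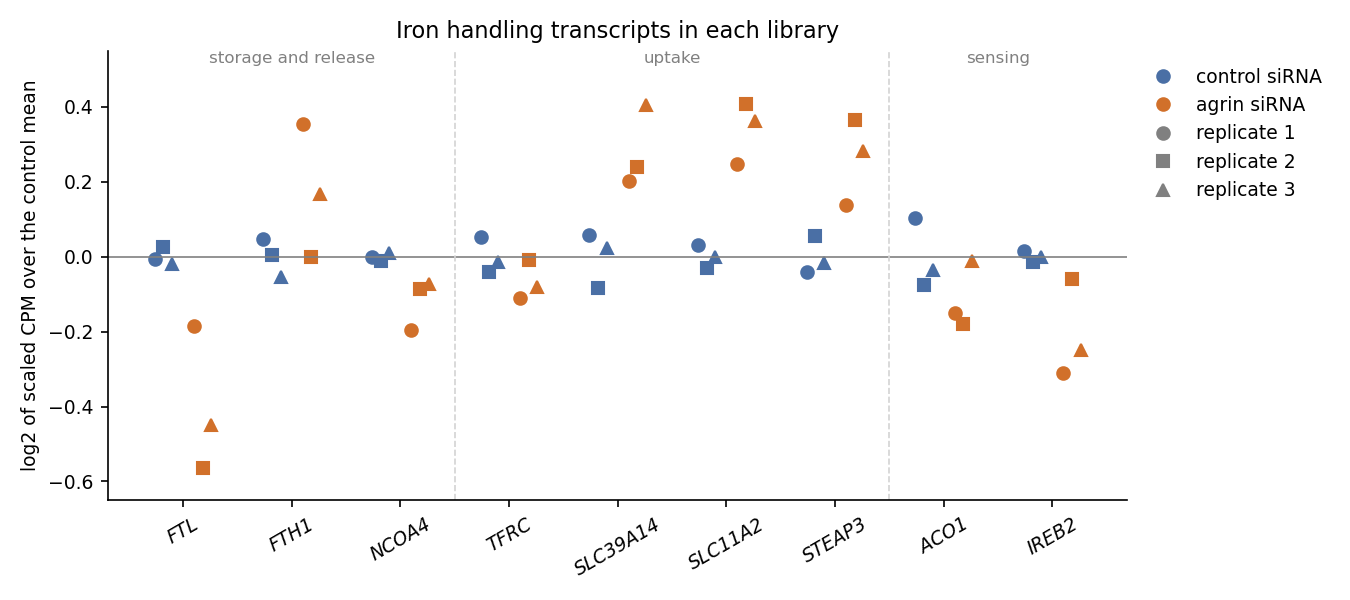
Log2 of scaled CPM over the control mean (y axis) in each of the 6 libraries for the 9 iron handling transcripts (x axis), with colour for the siRNA and symbol shape for the replicate. All 3 agrin siRNA libraries lie below every control for FTL, NCOA4 and IREB2 and above every control for SLC39A14, SLC11A2 and STEAP3, while the groups overlap for FTH1, TFRC and ACO1.

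FTL, the light subunit, was the 10th most abundant transcript of the table by mean level and took 0.428% of all reads. It stood at 5294, 5405 and 5239 scaled CPM in control libraries 1, 2 and 3, and at 4670, 3593 and 3894 in agrin siRNA libraries 1, 2 and 3. The groups did not overlap, and agrin siRNA library 1 lay nearest to the controls. The means were 5312 ± 84.7 and 4052 ± 556 (SD, n = 3 each), for a log2 fold change of -0.40 (standard error 0.09, limma adjusted p = 0.0109). The call was lost without agrin siRNA library 3 (-0.37, limma adjusted p = 0.0522). FTL (ENSG00000087086.14) lies on the plus strand of chromosome 19, at positions 48965301 to 48966878 of GRCh38.

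FTH1, the heavy subunit that carries the ferroxidase site, stood at 3070, 2985 and 2864 scaled CPM in control libraries 1, 2 and 3. In agrin siRNA libraries 1, 2 and 3 it stood at 3798, 2974 and 3340. Libraries 1 and 3 of the agrin siRNA group exceeded every control, and library 2 lay inside the control range. The log2 fold change was 0.17 (95% interval -0.017 to 0.37, limma adjusted p = 0.156). Without agrin siRNA library 2 it was 0.26 and passed (limma adjusted p = 0.00976), and after quantile normalization it was -0.067. FTH1 spans positions 61959718 to 61967660 of chromosome 11 on the minus strand (ENSG00000167996.15). It overlaps BEST1 on the opposite strand, a gene at only 16.3 ± 0.571 scaled CPM in the controls (SD, n = 3).

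The proportion of the subunit transcripts can be read within each library, where the scaling of the library drops out. The FTH1 to FTL ratio of scaled CPM was 0.580, 0.552 and 0.547 in control libraries 1, 2 and 3. It was 0.813, 0.828 and 0.858 in agrin siRNA libraries 1, 2 and 3. Every agrin siRNA library had a higher ratio than every control, and within each group the ratios lay close together. The mean went from 0.560 ± 0.0179 to 0.833 ± 0.0227 (SD, n = 3 each), a 1.49-fold difference (0.57 on the log2 scale). The two-sided exact permutation test gave p = 0.1, the smallest p that 3 libraries against 3 allow. Per length of transcript the ratio was 0.400 ± 0.0128 in the controls and 0.595 ± 0.0162 with agrin siRNA (SD, n = 3 each), so the light subunit transcript stayed the more abundant in both groups.

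The level of each subunit varied more among the agrin siRNA libraries than the ratio did. The coefficient of variation there was 13.7% for FTL and 12.3% for FTH1, but 2.72% for their ratio. Among the controls it was 1.59%, 3.49% and 3.20%. Agrin siRNA replicate 1 was highest and library 2 lowest for both subunits. The sum of both transcripts was 8364, 8390 and 8102 scaled CPM in control libraries 1, 2 and 3, and 8467, 6566 and 7233 in agrin siRNA libraries 1, 2 and 3. These sums overlapped between the groups (log2 difference -0.17, two-sided exact permutation p = 0.4), and the difference was -0.27 without agrin siRNA library 1 and -0.082 without agrin siRNA library 2.

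**Figure D2:**
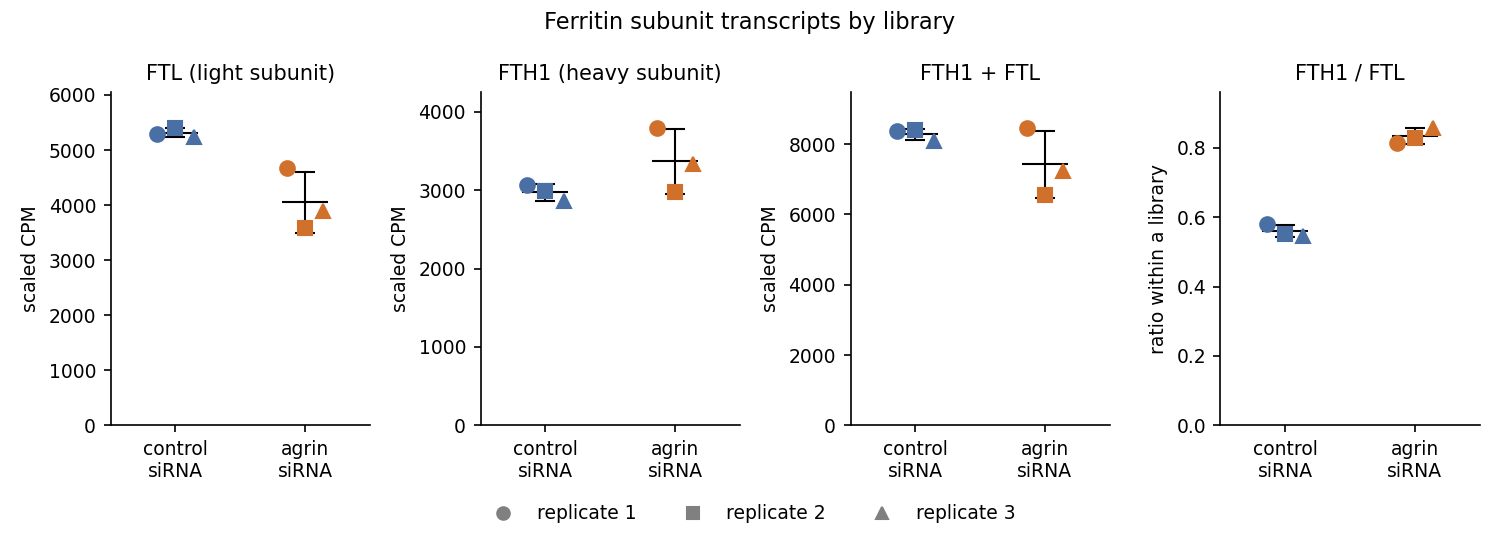
Scaled CPM of FTL, of FTH1 and of their sum, and the FTH1 to FTL ratio (y axes, all starting at 0), in the control and agrin siRNA libraries (x axis); points are libraries, and bars are the mean and SD of 3. The ratio runs from 0.547 to 0.580 in the controls and from 0.813 to 0.858 with agrin siRNA, while the sums of the 2 groups overlap.

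Both ferritin genes have processed pseudogenes that resemble their spliced transcripts, and reads may be split between them. GENCODE names 25 for FTH1 and 16 for FTL, of which 3 and 1 had rows. FTLP3, on chromosome 20, stood at 16.1 ± 0.547 scaled CPM in the controls and 12.5 ± 1.99 with agrin siRNA (SD, n = 3 each; log2 fold change -0.35, limma adjusted p = 0.0232). FTH1P8, on chromosome X, stood at 21.3 ± 2.84 and 25.9 ± 3.84 (SD, n = 3 each; 0.27, limma adjusted p = 0.109). Both of these rows had the sign of their parent's difference, at a small share of the parent's level. With these rows added to their parents, an alternative chosen after seeing the data, the FTH1 to FTL ratio was 0.563 in the controls and 0.838 with agrin siRNA.

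NCOA4 delivers ferritin to the autophagosome, where the shell is broken down and its iron released. It stood at 260, 258 and 262 scaled CPM in control libraries 1, 2 and 3, and at 227, 245 and 247 in agrin siRNA libraries 1, 2 and 3. The groups did not overlap, with a log2 fold change of -0.12 (95% interval -0.21 to -0.025) that did not pass the adjustment over all genes (limma adjusted p = 0.0609). It passed without agrin siRNA library 2 (-0.13, limma adjusted p = 0.0265). GENCODE names 3 pseudogenes of NCOA4, none with a row in the table.

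TFRC, the transferrin receptor through which most cells take up transferrin iron, stood at 331, 310 and 316 scaled CPM in control libraries 1, 2 and 3. It stood at 295, 317 and 301 in agrin siRNA libraries 1, 2 and 3, inside or just below the control range. The log2 fold change was -0.066 (95% interval -0.16 to 0.031, limma adjusted p = 0.28). The ratio of TFRC to the sum of the ferritin transcripts compares RNA levels within a library and does not measure iron uptake or storage. It was 0.0396, 0.0369 and 0.0389 in control libraries 1, 2 and 3 and 0.0349, 0.0482 and 0.0417 in agrin siRNA libraries 1, 2 and 3. The groups overlapped (log2 difference 0.10, two-sided exact permutation p = 0.6), and without agrin siRNA library 2 the difference was -0.013. TFRC lies at positions 196027183 to 196082189 of chromosome 3 (ENSG00000072274.12).

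SLC11A2 encodes DMT1, which moves ferrous iron out of endosomes into the cytosol. It had the smallest p-value of the 9 genes. Its level was 69.0, 66.2 and 67.5 scaled CPM in control libraries 1, 2 and 3, and 80.2, 89.5 and 86.8 in agrin siRNA libraries 1, 2 and 3. The groups lay well apart, with means of 67.5 ± 1.41 and 85.5 ± 4.80 (SD, n = 3 each). This was a log2 fold change of 0.34 (standard error 0.05, limma adjusted p = 0.000983), which stayed between 0.30 and 0.38 when each library was left out in turn. SLC11A2 lies at positions 50979401 to 51028566 of chromosome 12 (ENSG00000110911.15).

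SLC39A14, or ZIP14, carries ferrous iron that is not bound to transferrin, as well as zinc and manganese, across the plasma membrane. Its level was 422, 383 and 412 scaled CPM in control libraries 1, 2 and 3, and 467, 479 and 537 in agrin siRNA libraries 1, 2 and 3. The groups did not overlap, and agrin siRNA library 3 was the highest library. The means were 406 ± 20.5 and 494 ± 37.8 (SD, n = 3 each; log2 fold change 0.28, standard error 0.06, limma adjusted p = 0.00751). The call was kept without each library in turn. SLC39A14 lies at positions 22367249 to 22434129 of chromosome 8 (ENSG00000104635.13).

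STEAP3 reduces ferric to ferrous iron in the endosome and p53 is known to induce it. Its level was 19.6, 20.9 and 19.9 scaled CPM in control libraries 1, 2 and 3, and 22.2, 26.0 and 24.5 in agrin siRNA libraries 1, 2 and 3. No agrin siRNA library reached down to the controls, and library 1 lay nearest to them. STEAP3 thus rose by 0.26 on the log2 scale (standard error 0.06, limma adjusted p = 0.017). The call was lost without control library 1 (limma adjusted p = 0.0758), control library 3 (0.0622) or agrin siRNA library 3 (0.0648).

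The iron regulatory proteins themselves were measured as ACO1 and IREB2. ACO1 encodes iron regulatory protein 1, which works as a cytosolic aconitase when it holds an iron-sulfur cluster. Its level was 211, 186 and 192 scaled CPM in control libraries 1, 2 and 3, and 177, 173 and 195 in agrin siRNA libraries 1, 2 and 3. The groups overlapped through agrin siRNA library 3 (log2 fold change -0.11, 95% interval -0.24 to 0.021, limma adjusted p = 0.189). IREB2, whose protein is broken down when iron is plentiful, stood at 76.6, 75.1 and 75.8 in control libraries 1, 2 and 3, and at 61.2, 72.8 and 63.8 in agrin siRNA libraries 1, 2 and 3. All agrin siRNA libraries lay below the controls, with library 2 close to them. IREB2 thus fell by 0.20 on the log2 scale (standard error 0.06, limma adjusted p = 0.0326). The call held without agrin siRNA library 2 and was lost when any other was left out, with limma adjusted p = 0.11, 0.0858 and 0.0932 without control libraries 1, 2 and 3, and 0.0644 and 0.117 without agrin siRNA libraries 1 and 3.

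In all, 6 of the 9 genes had groups that did not overlap, where 45.2% of all tested genes did not. Read per length of the principal transcript, the controls ordered the 9 genes as FTL, FTH1, NCOA4, SLC39A14, TFRC, ACO1, SLC11A2, IREB2 and STEAP3. FTL stood at 6051 ± 96.5 scaled CPM per kilobase, FTH1 at 2419 ± 84.5, NCOA4 at 113 ± 0.848 and STEAP3 at 5.15 ± 0.178 in the controls (SD, n = 3 each). No neighbours in this order overlapped among the control libraries. With agrin siRNA, SLC39A14 (107 ± 8.15 scaled CPM per kilobase) and NCOA4 (104 ± 4.72) overlapped, and the order of the others was as in the controls.

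**Figure D3:**
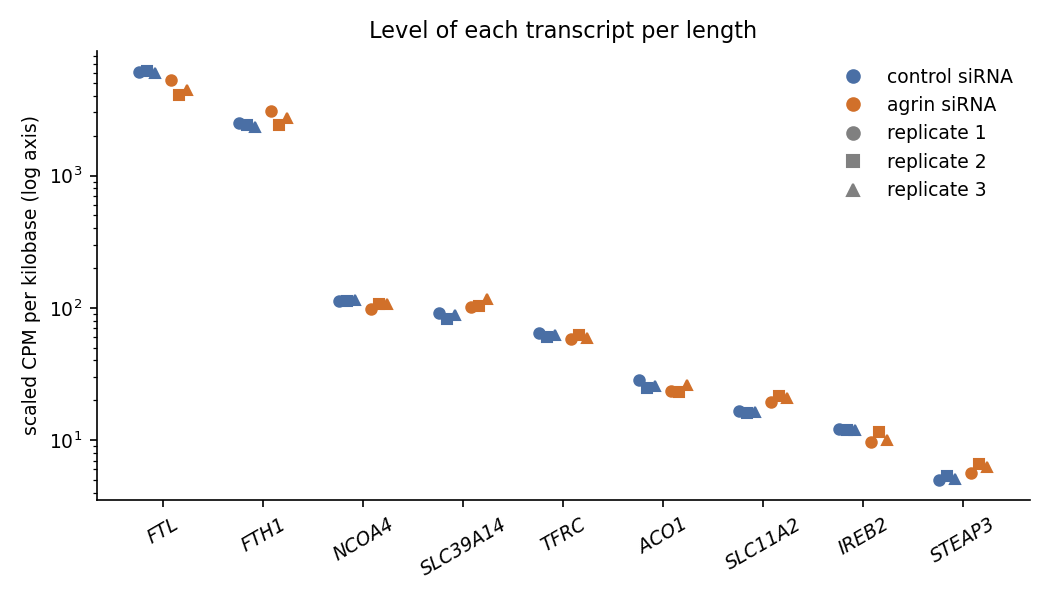
Scaled CPM per kilobase of transcript (y axis, log scale) of the 9 iron handling genes in each library, ordered along the x axis by their control level. FTH1 averages 2419 in the controls and NCOA4, the next in order, 113.

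By the root mean square difference of centred log2 values over the 6 libraries, the tested gene most like FTL was NNMT, the nicotinamide methyltransferase (0.0133; log2 fold change -0.40), followed by ADM2 and LINC01963. ADAM10, PLXNA3 and RRAS2 were most like SLC11A2 (from 0.0194 to 0.0232), and AL118506.1, SLC45A3 and SLC38A5 most like SLC39A14. HOXA9, ACTB and ARPC5 were most like STEAP3, and ADNP2, NUCKS1 and ERBIN most like IREB2. Likeness over 6 libraries in 2 groups is mostly likeness of the group difference.

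Around these genes, 90 others of iron, haem and iron-sulfur metabolism were tested from lists of the pathway. Of them, 19 rose, 13 fell and 58 missed the threshold, so 35.6% were called against 28.7% of all tested genes, with a median log2 fold change of 0.026. Of 12 genes of iron uptake and reduction tested, 6 were higher and 1 lower, 3 of the 6 being SLC11A2, SLC39A14 and STEAP3 above, and the list median was 0.16. SLC39A8, or ZIP8, the closest relative of SLC39A14, went from 26.3 ± 3.86 to 35.5 ± 1.67 scaled CPM (SD, n = 3 each; log2 fold change 0.44, limma adjusted p = 0.00679). STEAP1, of the STEAP3 family, was at 0.29 (limma adjusted p = 0.0157; 0.0672 without control library 2 and 0.0603 without agrin siRNA library 3). CYBRD1, the ferric reductase known from the duodenum, fell from 489 ± 25.0 to 395 ± 7.71 (SD, n = 3 each; log2 fold change -0.31, limma adjusted p = 0.00125). Of the exporters and ferroxidases, HEPH (hephaestin) alone was tested, at 0.16 and missed the threshold (limma adjusted p = 0.0505; 0.0375 without agrin siRNA library 2).

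**Figure D4:**
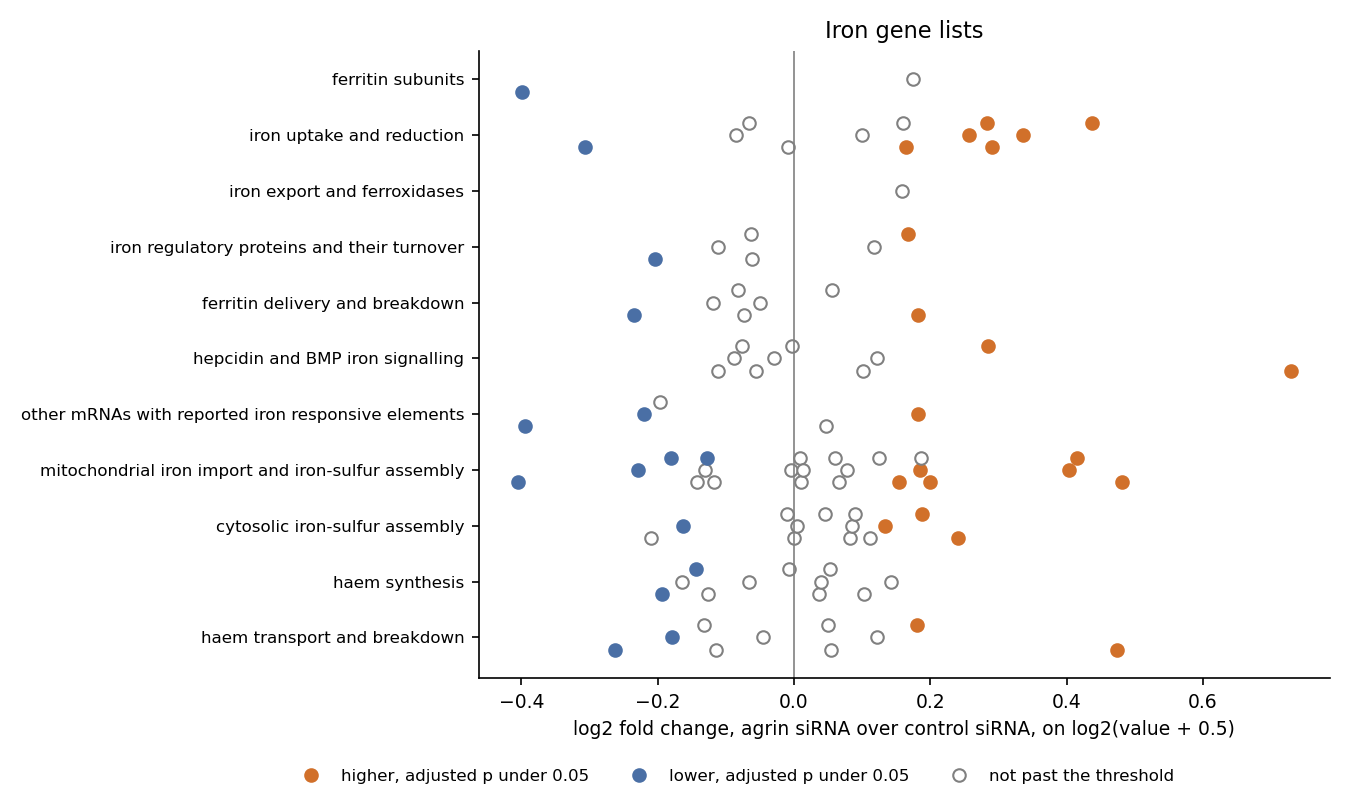
Log2 fold change of agrin siRNA over control (x axis) for each tested gene of the iron lists (y axis), filled where the adjusted p was under 0.05. The uptake list holds 6 higher genes and 1 lower, ID1 lies farthest to the right at 0.73, the haem synthesis list holds 2 lower genes, and the iron-sulfur and haem breakdown lists have called genes on both sides of 0.

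Among 6 genes of the iron regulatory proteins and their turnover, IREB2 fell and SKP1 rose. SKP1, a subunit of the ubiquitin ligase in which FBXL5 marks iron regulatory protein 2 for breakdown, was at 0.17 (limma adjusted p = 0.00937; 0.0581 without control library 1). FBXL5 itself was at -0.061 (limma adjusted p = 0.28). Of 7 genes of ferritin delivery and breakdown, TAX1BP1, an autophagy receptor that acts with NCOA4, fell from 234 ± 4.02 to 199 ± 4.02 scaled CPM (SD, n = 3 each; -0.23 on the log2 scale, limma adjusted p = 0.00153). PCBP4, a relative of the iron chaperone PCBP1, was at 0.18 (limma adjusted p = 0.0241; 0.104 without control library 1, 0.0977 without control library 3 and 0.0836 without agrin siRNA library 3). PCBP1 and PCBP2, which hand iron to ferritin, were at 0.056 and -0.050 and did not pass.

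Other transcripts with reported iron responsive elements included EPAS1 and CDC42BPA. EPAS1 encodes the hypoxia-inducible factor HIF-2 alpha and fell from 612 ± 42.4 to 465 ± 18.1 scaled CPM (SD, n = 3 each; log2 fold change -0.39, limma adjusted p = 0.000967). CDC42BPA was at -0.22 (limma adjusted p = 0.0173; 0.0786 without control library 1 and 0.0613 without control library 3). Of 10 genes of the hepcidin and BMP pathway, ID1 (0.73) and SMAD7 (0.28) were higher and 0 lower, but HAMP, HJV, TMPRSS6, TFR2 and BMP6, the genes that define that pathway in liver, had no row. ID1 went from 79.5 ± 1.61 to 132 ± 5.58 (SD, n = 3 each; limma adjusted p = 8.9e-06). The call of SMAD7 was lost without control library 2 (limma adjusted p = 0.0645), control library 3 (0.057) or agrin siRNA library 3 (0.0638).

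Mitochondria use iron for haem and iron-sulfur clusters, and their genes went both ways. Of 22 genes of mitochondrial iron import and iron-sulfur assembly, 6 were higher and 4 lower, with a median of 0.037. FDXR, the ferredoxin reductase and a known p53 target, rose (0.48, limma adjusted p = 0.000831), as did SLC25A28 (mitoferrin-2, an iron importer of the inner membrane; 0.42) and BOLA3, a late factor of cluster delivery (0.40). Of 13 genes listed with cytosolic assembly, 3 were higher and 1 lower. The lower gene, CISD2, encodes an iron-sulfur protein and not an assembly factor. CIAO2B, of the complex that inserts clusters into target proteins, rose (0.24, limma adjusted p = 0.00207), and its call was kept without each library in turn. NUBP2 (0.19), GLRX3 (0.13) and CISD2 (-0.16) also passed, with limma adjusted p = 0.0285, 0.0306 and 0.0422, and leaving out single libraries ended these calls in 5, 4 and 6 of 6 cases. NUBP2 kept its call without agrin siRNA library 2, and GLRX3 without agrin siRNA libraries 1 and 2.

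Of 11 genes of haem synthesis, 0 were higher and 2 lower. FECH, the ferrochelatase that puts iron into haem, was at -0.19 (limma adjusted p = 0.0129; 0.0676 without control library 1 and 0.0571 without control library 2). ALAD, which joins aminolevulinate into porphobilinogen, was at -0.14 (limma adjusted p = 0.0199) and lost its call without each control library and without agrin siRNA library 3, with adjusted p up to 0.0789. Of 10 genes of haem transport and breakdown, 2 were higher and 2 lower. ABCG2, an exporter that can carry haem, rose (0.47, limma adjusted p = 0.00267). HMOX2, the constitutive haem oxygenase, was at 0.18 (limma adjusted p = 0.0428; up to 0.161, and lost without control libraries 1 and 2 and agrin siRNA libraries 1 and 3). The haem-binding proteins PGRMC1 and PGRMC2 were at -0.26 and -0.18 (limma adjusted p = 0.0352 and 0.0317), with the call of PGRMC1 lost without control libraries 1 and 3 and that of PGRMC2 without control libraries 1 and 2 and agrin siRNA library 3. HMOX1, the inducible haem oxygenase, was at 0.055 (limma adjusted p = 0.603), named here after its value was seen.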

How the data were processed

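The deposited table gives, for each gene symbol, an expression signal per library that the authors scaled (its name says CPM). The tools were STAR 2.6.1d, SAMtools, HTSeq and edgeR and the build hg38, per the submitters' processing notes. Not given in the sources used here are the annotation, the strand setting, the gene filter and the scaling factors. Columns sum to between 1073188 and 1096534. Each value was a whole multiple of 1 step per library (100% of values, tolerance 0.01 of a read), which gave whole reads; 3 reads correspond to a value of 0.0681 to 0.0761. The unit differed from plain CPM, which the design had assumed, and the same test was kept.

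A gene was tested if 3 or more libraries had a value of 1 or more (13206 genes), using limma 3.58.1 under R 4.3.3 on log2(value + 0.5) (variance trend, two-sided, Benjamini-Hochberg over all tested genes). Fold changes on this scale understate those of low genes. Ratios were compared by exact permutation over libraries. The labels do not state whether replicates were separate cultures, so p-values measure a spread that may be technical. Read counts of same-group libraries differed beyond sampling noise in every pair. Chi-square over its degrees of freedom was 4.42 to 5.85 in the control pairs and 10.2 to 24.8 in the agrin siRNA pairs. The limma model took a single variance per gene for both groups.

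The genes and lists were chosen with earlier results of these data known. Named genes were the listed iron genes, AGRN, up to 4 called genes of largest change per wider list (the most abundant where none passed), and the 3 genes most like each called member; FBXL5, PCBP1, PCBP2, HMOX1, BEST1 and the pseudogenes were added after their values were seen. Some genes the rule took are counted but not reported here by name. Of 14168 symbols, 14144 matched 1 gene of GENCODE release 29 on GRCh38. Lengths are those of the longest principal transcript. Alternatives were other pseudocounts (0.1 and 1), filters, scalings and variance models, a block for the replicate number, the count tests of DESeq2 1.42.0 and edgeR 4.0.16 on recovered reads, a threshold of 0.01, and leaving out each library. The test was run on reads simulated with an equal spread in both groups. It recovered 30% of 1.2-fold and 98% of 1.5-fold changes, and 4.68% of its calls were false. The real agrin siRNA libraries varied more than the controls, so these shares may not hold for them. Figures were drawn with matplotlib 3.10.9.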

Additional observations from a re-analysis of the deposited data

How the results depend on the processing

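The rises of SLC11A2 and SLC39A14 kept their direction and call in every alternative run. The log2 difference of the FTH1 to FTL ratio was 0.57 with pseudogene rows added, and 0.55 to 0.60 without each library. Recovered reads and the replicate block return its main value by construction. Leaving out a single library cannot reverse groups that do not overlap, so these settings could not test the direction of the ratio. At a threshold of 0.01 the calls of FTL (-0.40), STEAP3 (0.26) and IREB2 (-0.20) were lost, and IREB2 (-0.20) also lost its call with no filter and without the variance trend. Array weights added calls for FTH1 (0.16), TFRC (-0.086) and NCOA4 (-0.075), and rescaling without mitochondrial and the 10 most abundant genes added NCOA4 (-0.15). Quantile normalization reversed FTH1 (-0.067); the cause was not tested. The lower genes among the 9 numbered 1 with no filter and without the trend, 4 with array weights and 0 at a threshold of 0.01.

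Over all tested genes, 2005 were higher and 1783 lower. Array weights gave 4114 and 4152 and a threshold of 0.01 gave 1020 and 909, and for the 90 wider iron genes these settings gave 34 and 26, and 9 and 4. Rescaling without mitochondrial and top genes made higher genes 41.1% of the calls instead of 52.9%, with 3 higher and 3 lower among the 9.

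Without each library in turn, log2 fold changes ran from -0.51 to -0.32 for FTL, 0.085 to 0.26 for FTH1, 0.21 to 0.32 for STEAP3, -0.28 to -0.15 for IREB2, -0.14 to -0.081 for NCOA4, -0.095 to -0.039 for TFRC and -0.16 to -0.058 for ACO1, and the TFRC to ferritin ratio from -0.013 to 0.22. The counts of higher and lower genes ran from 1124 to 2551 and from 947 to 2588 over all genes, 2 to 4 and 0 to 3 among the 9, and 10 to 25 and 4 to 13 among the wider iron genes.

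Of the 25 called genes that the rule for named genes took from the wider lists, 12 kept their call without each library in turn. HMOX2 also lost its call with edgeR, DESeq2 and 4 other settings, PGRMC1 and PGRMC2 with no filter and without the trend, PGRMC1 after quantile normalization, GLRX3 without the trend, and NUBP2 and GLRX3 after rescaling. DESeq2 also ended the calls of GLRX3 and CISD2. HEPH passed under 6 settings, among them a pseudocount of 0.1 and no filter.

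Same-numbered libraries did not deviate together in every pair (correlations -0.037, 0.17 and 0.20 for numbers 1, 2 and 3, and control replicate 1 correlated best with agrin siRNA replicate 3), so the numbers were not taken as pairs. With the replicate block, 3 of the 9 genes were higher and 2 lower, 1905 and 1775 over all genes, and FTL was at -0.40; GLRX3, CISD2 and KRT10 lost their calls. With 3 libraries a group, the permutation test of a ratio cannot go below p = 0.1, and differences of about the size of TFRC's or ACO1's lie within the spread between libraries.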
